A study of Mus musculus with 2 samples.

Results

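The liver makes most of the proteins that clot blood, dissolve clots and mark foreign surfaces for lysis. A set of 39 mouse genes for such proteins was described in 2 single-cell RNA libraries of liver, out of 32287 features counted. The genes were a named list, found by symbol in the feature table. They comprised 18 clotting genes, 5 genes of fibrinolysis and 16 complement genes, and all 39 were present in both libraries.

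Both libraries came from wild-type C57BL/6J mice given an adeno-associated virus (AAV) at 4 weeks of age. The library labelled shBicd2 came from mice given AAV-shBicd2, named for a short hairpin against Bicd2, an adaptor of the dynein motor. The library labelled scramble came from mice given AAV-scramble, its control. Mice of both groups received concanavalin A, a plant lectin used to induce T cell-driven hepatitis, 3 weeks after the virus. The dose was 15 mg/kg, given intravenously, and livers were taken after 6 hours. No library without concanavalin A was used here, so both libraries show liver under acute inflammation. The vector's promoter, the number of animals per library and the way the tissue was dissociated are not given in the sources used here.

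Clotting runs as a cascade of proteases that ends with thrombin cutting fibrinogen into fibrin, and inhibitors such as antithrombin and protein C restrain it. Plasmin then dissolves fibrin. Complement is a related cascade in which C3 and C5 are cleaved by convertases and a membrane attack complex is assembled from C5 to C9. In liver these proteins are made mainly by hepatocytes, and several, fibrinogen and C3 among them, are acute-phase proteins whose transcription responds to interleukin 6.

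The libraries held 3038 barcodes with 5624055 unique molecular identifiers (UMIs) for shBicd2 and 2805 barcodes with 5086306 UMIs for scramble, and 3 barcode sequences occurred in both. Hepatocyte barcodes, those of clusters that no marker set of another cell type named, numbered 2662 in the shBicd2 library and 2457 in the scramble library. Of their 12 clusters only cluster 8, with 9 of 14 hepatocyte markers raised, was named hepatocyte-like. Clusters 2, 9 and 10, almost wholly of shBicd2 barcodes, had 3, 3 and 4 raised but did not meet the conditions on the share of markers and on the leading genes, which were set after seeing the data. Hepatocyte markers took 1.82%, 1.67% and 1.80% of the UMIs of these 3 clusters and 0.761% to 1.32% in the other 8. All 14 hepatocyte markers had at least 50 UMIs, and their summed level was 14608 CPM (a gene's UMIs scaled to the same total in each library) in shBicd2 against 9882 CPM in scramble, a ratio of 1.48. Of the 12 marker lists of other cell types, 7 had a summed level whose ratio had an interval above 1 in hepatocyte barcodes, 1 below 1 and 4 across 1. The 13 monocyte/macrophage markers summed to 92.9 CPM in shBicd2 against 55.7 CPM in scramble and the 12 neutrophil markers to 2362 against 1546 CPM, while the 9 dendritic markers summed to 184 against 248 CPM, a ratio of 0.740 (0.678 to 0.808). Of these lists 3, 7 and 2 genes had at least 50 UMIs. Whether hepatocytes themselves express some of these markers was not tested. The median barcode had 1581 and 1588 UMIs, of which mitochondrial genes made up 0.332% in shBicd2 and 0.174% in scramble. The level of Bicd2 itself gave no sign of a knockdown: the library labelled shBicd2 had 20.2 CPM against 14.4 CPM in the library labelled scramble, a ratio of 1.41 (1.02 to 1.95). Each ratio below therefore compares 2 libraries by their labels and not a measured loss of Bicd2. Barcodes with a UMI of EGFP, a reporter sequence in the reference, made up 29.1% against 6.55%. Because each group is a single library, replicate error is unknown and no test was made. The 95% intervals (exact conditional binomial for ratios, exact binomial for shares, exact Poisson for levels) cover counting error only.

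Several of the genes lie side by side in the mouse genome (GRCm38, GENCODE M21). The 3 fibrinogen genes share a stretch of chromosome 3 in which Fgg and Fga are 11 kb apart and Fga and Fgb 6.51 kb apart. Hrg, Kng2 and Kng1 are neighbours on chromosome 16, and C8b and C8a lie 11.1 kb apart on chromosome 4. F7 lies 1.5 kb before F10 and F11 lies 4.66 kb from Klkb1, both pairs on chromosome 8. Cfb and C2 on chromosome 17 are separated by only 0.086 kb, and the annotated gene Gm20547 overlaps both on their strand, so the split of reads among these genes is uncertain.

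Promoter sequences from RefSeq (GRCm38.p6), 250 bases before to 50 after the start of the gene, were available for 31 of the 39 genes. The sequences printed are those of the fibrinogen genes, which share a locus and act as 1 protein, and of the members with the highest and the lowest ratio between libraries in each branch. C2, the lowest complement gene, had no entry. Capitals mark matches, on either strand, to TTCNNNGAA (a STAT motif), CTGGGAA (an interleukin 6 response element) or GTTAATNAT (part of an HNF1 motif), and a sequence without capitals holds none of the motifs searched.
Fga, chr3:83025903-83026202, plus strand: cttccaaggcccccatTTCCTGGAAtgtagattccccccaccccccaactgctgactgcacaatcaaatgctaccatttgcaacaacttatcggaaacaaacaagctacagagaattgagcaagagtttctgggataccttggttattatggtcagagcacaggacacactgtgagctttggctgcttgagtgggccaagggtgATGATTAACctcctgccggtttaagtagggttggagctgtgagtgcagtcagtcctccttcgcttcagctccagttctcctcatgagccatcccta
Fgb, chr3:83049814-83050113, minus strand: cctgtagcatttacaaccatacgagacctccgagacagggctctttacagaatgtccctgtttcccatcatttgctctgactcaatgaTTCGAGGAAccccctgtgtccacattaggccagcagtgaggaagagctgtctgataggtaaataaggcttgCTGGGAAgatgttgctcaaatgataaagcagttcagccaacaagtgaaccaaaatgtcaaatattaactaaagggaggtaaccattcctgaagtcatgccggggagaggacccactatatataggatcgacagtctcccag
Fgg, chr3:83007474-83007773, plus strand: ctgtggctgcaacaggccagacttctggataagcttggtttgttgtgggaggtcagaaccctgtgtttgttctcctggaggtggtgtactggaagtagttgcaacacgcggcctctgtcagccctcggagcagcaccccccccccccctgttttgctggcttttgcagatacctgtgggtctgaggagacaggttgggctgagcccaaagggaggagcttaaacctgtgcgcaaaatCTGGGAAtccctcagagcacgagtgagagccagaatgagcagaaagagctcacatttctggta
F2, chr2:91636408-91636707, minus strand: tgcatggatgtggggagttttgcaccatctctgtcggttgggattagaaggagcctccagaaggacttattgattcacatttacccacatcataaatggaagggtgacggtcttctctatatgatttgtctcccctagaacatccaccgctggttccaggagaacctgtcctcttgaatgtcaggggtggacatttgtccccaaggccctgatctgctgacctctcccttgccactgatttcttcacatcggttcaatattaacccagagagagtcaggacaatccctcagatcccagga
F13b, chr1:139501457-139501756, plus strand: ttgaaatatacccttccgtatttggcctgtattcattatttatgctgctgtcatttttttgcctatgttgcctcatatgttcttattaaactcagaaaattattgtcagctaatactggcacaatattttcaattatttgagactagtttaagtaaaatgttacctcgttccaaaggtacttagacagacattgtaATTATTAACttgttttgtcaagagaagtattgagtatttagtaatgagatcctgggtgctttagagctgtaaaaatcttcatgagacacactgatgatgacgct
Serpinf2, chr11:75439452-75439751, minus strand: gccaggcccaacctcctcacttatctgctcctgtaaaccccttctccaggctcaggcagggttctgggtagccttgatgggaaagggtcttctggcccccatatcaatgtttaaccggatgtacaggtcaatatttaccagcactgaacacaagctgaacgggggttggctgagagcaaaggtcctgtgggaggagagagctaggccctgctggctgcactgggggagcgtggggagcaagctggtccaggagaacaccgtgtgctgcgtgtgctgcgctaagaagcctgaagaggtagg
Hrg, chr16:22950822-22951121, plus strand: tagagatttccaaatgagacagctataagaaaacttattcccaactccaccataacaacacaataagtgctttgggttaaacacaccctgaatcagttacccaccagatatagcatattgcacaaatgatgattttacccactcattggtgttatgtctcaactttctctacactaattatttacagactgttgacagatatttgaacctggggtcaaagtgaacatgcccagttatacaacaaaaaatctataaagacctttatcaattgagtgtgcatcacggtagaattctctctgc
Hc, chr2:35061363-35061662, minus strand: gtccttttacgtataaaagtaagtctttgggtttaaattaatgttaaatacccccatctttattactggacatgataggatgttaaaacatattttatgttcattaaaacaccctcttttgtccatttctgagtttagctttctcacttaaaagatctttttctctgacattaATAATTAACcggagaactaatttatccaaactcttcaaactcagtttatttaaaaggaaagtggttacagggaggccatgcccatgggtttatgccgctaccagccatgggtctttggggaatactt

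Each fibrinogen promoter held at least 1 of these motifs. The STAT motif stood 234 bases before the start of Fga and 162 before that of Fgb, and the interleukin 6 element 91 bases before Fgb and 13 before Fgg. Across the 31 promoters, TTCNNNGAA occurred in 7 (22.6%), against 8.47% of 27025 mouse promoters of the same length. CTGGGAA also occurred in 7 (22.6%), against 11.1% of all promoters, and in F9, Masp2 and Vtn it overlapped a STAT match. GTTAATNAT was found in 4 (12.9%), those of Fga, F13b, Hc and C4bp, against 0.836% of all promoters. CAAAGTCCA, part of an HNF4 motif, and TTGCGCAA, a C/EBP motif, were found in none of the 31, against 0.477% and 0.185% of all promoters. A match is a stretch of letters and not a measured binding site.

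Together the 39 genes gave 2.64% (2.62% to 2.65%) of hepatocyte UMIs in the shBicd2 library and 2.74% (2.73% to 2.76%) in the scramble library, a ratio of 0.962 (0.954 to 0.969). The clotting genes gave 1.5% against 1.65%, a ratio of 0.911. Of their UMIs, 62356 of 76484 in shBicd2 and 64028 of 75637 in scramble were of the 3 fibrinogen genes, whose sum had a ratio of 0.878. By gene, 12 of the 18 clotting genes had a ratio above 1, as did 5587 of 9486 genes with at least 50 UMIs. The fibrinolysis genes gave 0.202% against 0.226%, a ratio of 0.895. The complement genes gave 0.935% against 0.870%, a ratio of 1.08. Leaving out the EGFP barcodes moved the clotting ratio above 1 and the fibrinolysis interval across 1, for a cause not tested. Without them the clotting genes gave 1.74% against 1.68% (1.036, 1.025 to 1.048), the fibrinolysis genes 0.233% against 0.234% (0.994, 0.965 to 1.025) and the complement genes 1.02% against 0.887% (1.15, 1.14 to 1.17).

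Gene by gene, 5 of the 39 were at least 1.5-fold higher in shBicd2 (F13b, Proc, Hrg, Hc and Cfi) and 1 was at least 1.5-fold lower (C2). Of all 9486 genes with at least 50 UMIs over both libraries, 22.3% were past 1.5-fold higher and 10.3% past 1.5-fold lower, and the members' shares were 12.8% and 2.56%. Their median log2 ratio was 0.14, against 0.13 for all tested genes, and 20 of 39 lay above that all-gene median. The branch medians were 0.16 for clotting, -0.16 for fibrinolysis and 0.26 for complement. The counting interval lay above 1 for 17 members and below 1 for 12, against 3169 and 1930 of the 9486 genes. Such intervals narrow with more UMIs, and the members were not matched to other genes for level.

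**Figure D1:**
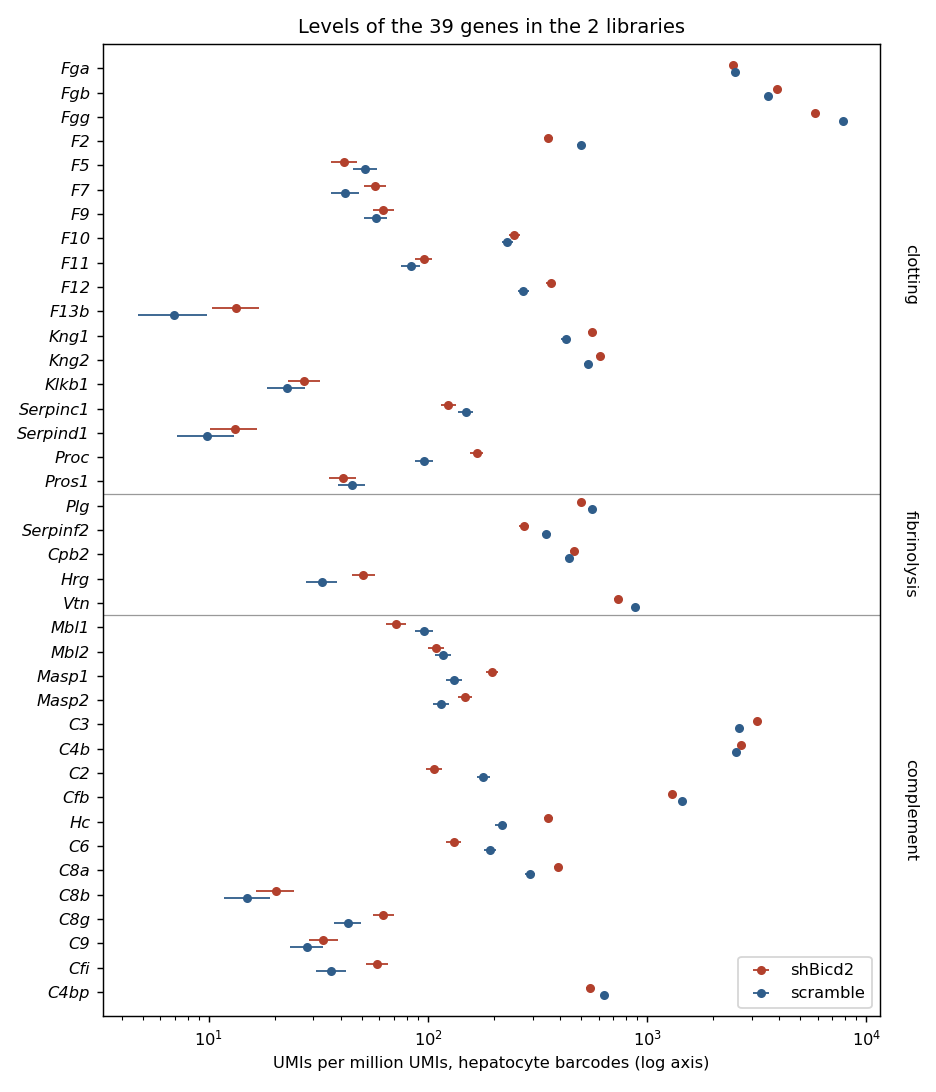
Level of each of the 39 genes in hepatocyte barcodes, in CPM on a log axis, for the shBicd2 and the scramble library; points are summed levels and bars their 95% exact Poisson intervals. The points of most genes lie close together, and Proc, Hc and C2 are among those that stand apart, with 167 against 95.7, 354 against 217 and 107 against 179 CPM.

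The 3 fibrinogen chains had different ratios. Fga, the alpha chain, had 2454 CPM in shBicd2 and 2504 CPM in scramble, a ratio of 0.980 (0.955 to 1.005). Fgb, the beta chain, had 3926 CPM against 3567 CPM, a ratio of 1.10 (1.08 to 1.12). Fgg, the gamma chain, had 5847 CPM against 7859 CPM, a ratio of 0.744 (0.733 to 0.756). The chains join in equal numbers in the fibrinogen protein. The fibrinogen genes summed to 1.22% of UMIs against 1.39%, and of the 3 only Fgg had an interval below 1.

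Among the clotting factors, F2, which encodes prothrombin, had 355 CPM in shBicd2 and 500 CPM in scramble, a ratio of 0.710 (0.667 to 0.755). F5, the cofactor of factor Xa, had 41.4 CPM against 51.8 CPM, a ratio of 0.799 (0.661 to 0.966). These were the only factors of the 8 below 1. F7, which starts the extrinsic pathway, had 57.3 CPM against 42.0 CPM (1.36, 1.13 to 1.64), and F12, which starts contact activation, had 363 CPM against 272 CPM (1.33, 1.24 to 1.43). F9, F10 and F11, proteases of the middle of the cascade, lay between 1.075 and 1.15.

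F13b, the carrier subunit of the fibrin-crosslinking factor XIII (ENSMUSG00000026368, chromosome 1, 139501702 to 139523752, plus strand), had 68 UMIs in shBicd2 and 32 in scramble. That gave 13.3 CPM against 6.96 CPM, a ratio of 1.92 (1.24 to 3.01), the widest interval of the 6 genes past 1.5-fold.

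The contact system genes were all on the high side without reaching 1.5-fold. Kng1, a kininogen, had 557 CPM in shBicd2 and 425 CPM in scramble (1.31, 1.24 to 1.39). Its paralog Kng2 had 606 CPM against 536 CPM (1.13, 1.07 to 1.19). Reads may be shared between such similar genes, and their sum had a ratio of 1.21. Klkb1, plasma prekallikrein, had 27.2 CPM against 22.6 CPM (1.205, 0.927 to 1.57), and without the EGFP barcodes its ratio was 0.830.

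Of the anticoagulants, Proc (ENSMUSG00000024386), the zymogen of activated protein C, had 849 UMIs in shBicd2 and 440 in scramble. Its level was 167 CPM against 95.7 CPM, a ratio of 1.74 (1.55 to 1.96). Pros1, the cofactor protein S, had 40.8 CPM against 44.8 CPM (0.910, 0.747 to 1.11), an interval that spans 1, and its ratio was 1.07 without EGFP barcodes. Serpinc1, antithrombin, had 124 CPM against 148 CPM (0.832, 0.746 to 0.929). Serpind1, heparin cofactor II, had 13.1 CPM against 9.79 CPM, with an interval that spanned 1 (0.906 to 2.004).

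In fibrinolysis, Plg, the plasmin precursor, had 501 CPM in shBicd2 and 559 CPM in scramble (0.896, 0.848 to 0.946). Serpinf2, the plasmin inhibitor alpha-2-antiplasmin, had 275 CPM against 347 CPM (0.792, 0.736 to 0.851). Without EGFP barcodes Plg was at 1.036, on the other side of 1. Vtn, vitronectin, an adhesive glycoprotein of plasma and matrix, had 732 CPM against 880 CPM (0.832, 0.796 to 0.870). Cpb2, a carboxypeptidase that slows fibrinolysis, had 463 CPM against 438 CPM (1.06, 0.994 to 1.12). Hrg, a histidine-rich glycoprotein that binds plasminogen (ENSMUSG00000022877, chromosome 16, 22951072 to 22961656, plus strand), was the exception, with 50.8 CPM against 32.9 CPM, a ratio of 1.55 (1.26 to 1.90). Its neighbour Kng2 was at 1.13.

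The lectin pathway split between recognition molecules and proteases. The mannose-binding lectins Mbl1 and Mbl2 had 71.4 and 109 CPM in shBicd2, against 96.2 and 117 CPM in scramble, with ratios of 0.742 (0.644 to 0.855) and 0.930 (0.824 to 1.05). Their proteases Masp1 and Masp2 had 196 and 148 CPM, against 132 and 115 CPM, with ratios of 1.49 (1.34 to 1.65) and 1.29 (1.15 to 1.44). Masp1 lay just inside 1.5-fold.

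The convertase genes covered the lowest ratio of the set. C2, the protease of the classical and lectin convertase (ENSMUSG00000024371, chromosome 17, 34862604 to 34898265, minus strand), had 544 UMIs in shBicd2 and 821 in scramble, or 107 CPM against 179 CPM. Its ratio was 0.597 (0.535 to 0.666). Cfb, the matching protease of the alternative pathway, had 1294 CPM against 1438 CPM (0.900, 0.869 to 0.931). C3, the substrate of both convertases, had 3159 CPM against 2631 CPM (1.201, 1.17 to 1.23). C4b had 2670 CPM against 2534 CPM, a ratio of 1.05. Its near-identical copy C4a had 340 CPM against 795 CPM, and the sum of both had a ratio of 0.904 (0.884 to 0.925), so the direction for C4b depends on how reads were split between them.

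In the terminal pathway, 5 of 6 genes had ratios above 1, as did 5587 of all 9486 tested genes. The interval lay above 1 for 3 of the 6. Hc, which encodes C5 (ENSMUSG00000026874, chromosome 2, 34983331 to 35061438, minus strand), had 1805 UMIs in shBicd2 and 995 in scramble, or 354 CPM against 217 CPM. Its ratio was 1.64 (1.51 to 1.77), the highest of the 16 complement genes. The chains of C8, namely C8a, C8b and C8g, had ratios of 1.35 (1.26 to 1.44), 1.35 (0.982 to 1.85) and 1.45 (1.21 to 1.74). C9, which forms the pore, had 33.3 CPM against 28.1 CPM (1.19, 0.939 to 1.51), but it was below 1 in 3 of 15 alternatives, at 0.978 without cluster 8, so that 4 of 6 were then above 1. C6 went the other way with 131 CPM against 192 CPM, a ratio of 0.684 (0.617 to 0.757), just inside 1.5-fold.

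Of the regulators, Cfi, the protease that inactivates C3b and C4b (ENSMUSG00000058952, chromosome 3, 129835884 to 129875332, plus strand), had 58.4 CPM in shBicd2 and 36.1 CPM in scramble, a ratio of 1.62 (1.33 to 1.97). C4bp, a cofactor of Cfi, had 546 CPM against 638 CPM, a ratio of 0.856 (0.812 to 0.901), which was 1.005 without EGFP barcodes.

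**Figure D2:**
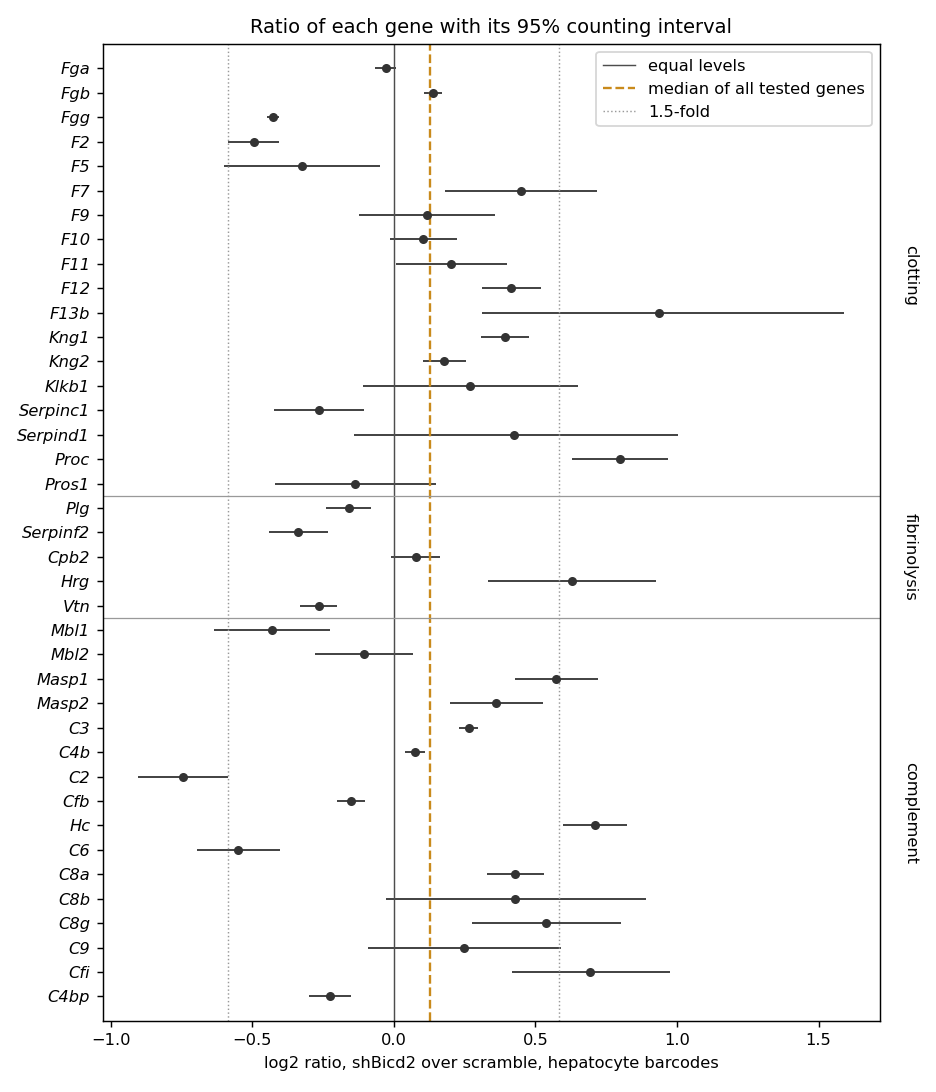
Log2 ratio of each gene, shBicd2 over scramble, in hepatocyte barcodes; points are ratios, bars 95% counting intervals, dotted lines 1.5-fold and the dashed line the median of all tested genes at 0.13. F13b, Proc, Hrg, Hc and Cfi lie right of the upper dotted line and C2 left of the lower one.

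The choice of scaling moved the ratios. The nuclear RNAs Malat1 and Neat1, which count in the total, took 25923 and 46323 CPM in shBicd2 against 35682 and 67468 CPM in scramble. Scaling by TMM factors lowered every log2 ratio by 0.12, and then 17.0% of all genes were past 1.5-fold higher and 14.7% lower. The members then had 3 genes higher and 3 lower. F9, F10, Cpb2 and C4b, above 1 when scaled by total UMIs, were below 1 with median-of-ratios size factors, at 0.992, 0.983, 0.966 and 0.964. Both scalings shift all log2 ratios alike, so the members' place relative to the all-gene median, 20 of 39 above it, could not change.

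The share of the members was larger in barcodes with over 1% mitochondrial UMIs than in those with less, in both libraries. In barcodes with over 1% mitochondrial UMIs the 39 genes gave 3.66% of UMIs in shBicd2 and 3.30% in scramble, and in barcodes with at most 0.25% they gave 2.40% in shBicd2 and 2.63% in scramble. The share did not increase steadily: the 64 shBicd2 and 190 scramble barcodes with no mitochondrial UMI, pooled here into the poor set, gave 2.75% (2.64% to 2.87%) in shBicd2 and 2.73% (2.66% to 2.79%) in scramble, above the 2.39% and 2.62% of those above 0 to 0.25%. Of 37 members with at least 50 UMIs in these barcodes of each library, 16 were at least 1.5-fold higher in the mitochondria-rich barcodes of shBicd2 and 10 in those of scramble, and none was 1.5-fold lower in either. Among all genes 10.4% were that much higher and 21.3% lower in shBicd2, and 9.8% higher and 19.3% lower in scramble. The median log2 ratio of the members was 0.50 in shBicd2 and 0.35 in scramble, while that of all genes was -0.21 and -0.15. Hepatocyte markers also took a larger share there, 2.71% of UMIs in mitochondria-rich against 1.199% in mitochondria-poor shBicd2 barcodes, and 1.95% against 0.836% in scramble. Malat1 and Neat1 together took less, 5.64% against 7.28% in shBicd2 and 8.66% against 10.6% in scramble. The mitochondria-rich barcodes were shallower, with medians of 1059 and 1103 UMIs against 2174 and 1904, and the part of depth, nuclear RNA and marker level in the result was not tested.

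The members differed widely in this respect. Serpinc1, Hrg, C8b, C8g, C9 and Cfi were at least 2-fold higher in mitochondria-rich barcodes of both libraries. C9 had 112 CPM in rich and 16.3 CPM in poor shBicd2 barcodes, a ratio of 6.83 (4.64 to 10.2), and 91.5 CPM against 20.4 CPM in scramble, a ratio of 4.48 (3.02 to 6.60). Serpinc1 had 340 CPM against 79.2 CPM in shBicd2 (4.29) and 329 CPM against 118 CPM in scramble (2.80). A further 11 members, F7, F10, F11, F12, Kng2, Masp1, C4b, C2, Cfb, C8a and C4bp, had ratios between 0.670 and 1.23 in both libraries. The chains of C8 fell on both sides, with C8b and C8g over 3-fold in shBicd2 (3.05 and 3.11) and C8a at 0.863. These groups were chosen after the values were seen. Across the 37 members the ratios of the 2 libraries had a Spearman correlation of 0.69, against 0.46 over 6448 genes, as a description with no test. The 2 sets of genes were not matched for level, and the part of level in this gap was not tested.

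**Figure D3:**
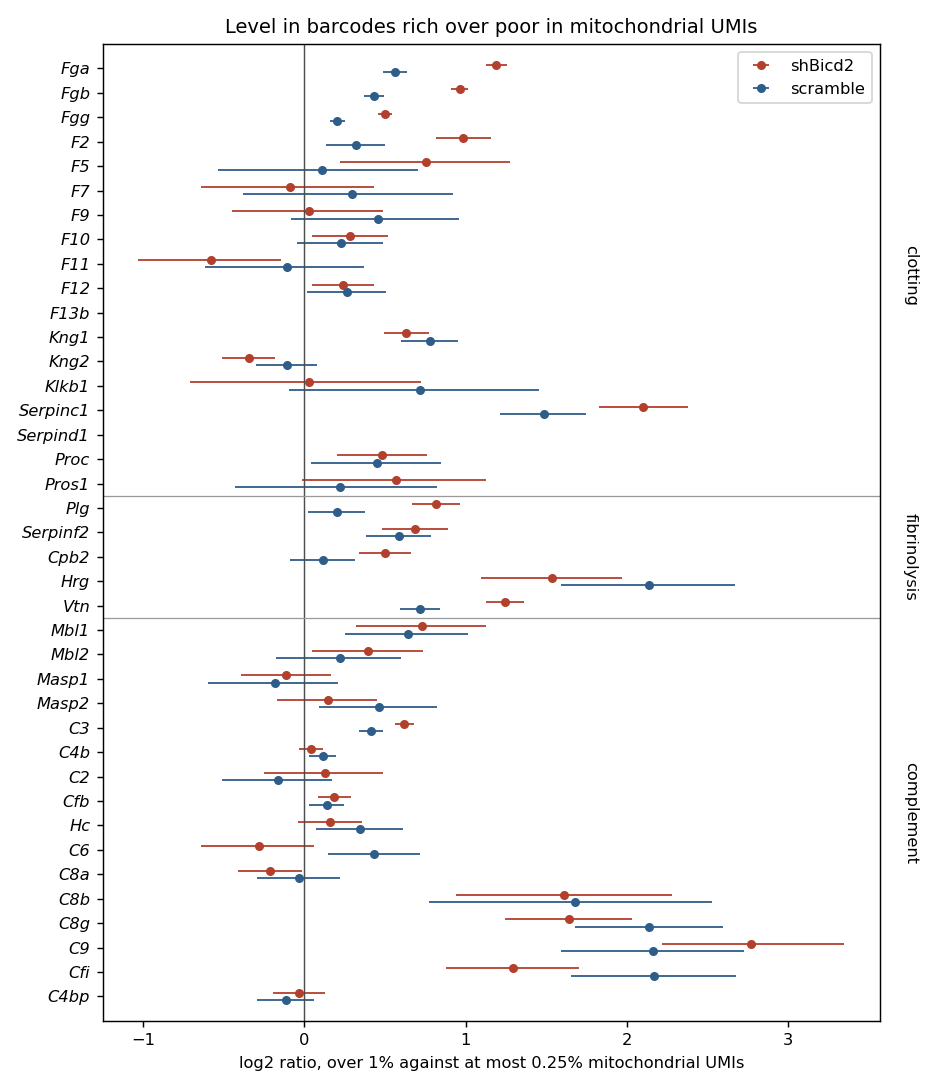
Log2 ratio of each gene's level in hepatocyte barcodes with over 1% mitochondrial UMIs over its level in those with at most 0.25%, in the shBicd2 and the scramble library, with 95% counting intervals; F13b and Serpind1 had under 50 UMIs and are not drawn. Serpinc1, Hrg, C8b, C8g, C9 and Cfi lie far to the right in both libraries, and C4bp, C4b and Masp1 near 0.

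The difference between libraries was not the same at every mitochondrial share. From the lowest to the highest of the 5 classes of barcode, the summed share of the members had a ratio, shBicd2 over scramble, of 1.01, 0.910, 0.900, 0.993 and 1.35. In the highest class, over 5% to 25%, the clotting genes gave 3.49% of UMIs in shBicd2 and 2.42% in scramble (1.44), the fibrinolysis genes 0.4996% against 0.3795% (1.32) and the complement genes 1.08% against 0.945% (1.15). There, Neat1 had 11935 CPM in shBicd2 and 39459 CPM in scramble, and Alb 13197 CPM against 8619 CPM, and whether these differences account for the ratios was not tested. This class held 166 and 122 barcodes. Counts past 1.5-fold in the 5 classes, from the lowest, were 3 higher and 3 lower of 22 members (all genes 16% and 23.8%), 5 and 2 of 37 (21.5% and 10.6%), 3 and 5 of 36 (21.6% and 13%), 2 and 1 of 31 (20% and 13.8%), and 4 and 0 of 28 (27.6% and 21.1%). No class had a share of members higher that exceeded the share of all genes. The share of members lower exceeded that of all genes only in the class above 0.25% to 1%, at 13.89% against 13.03%.

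**Figure D4:**
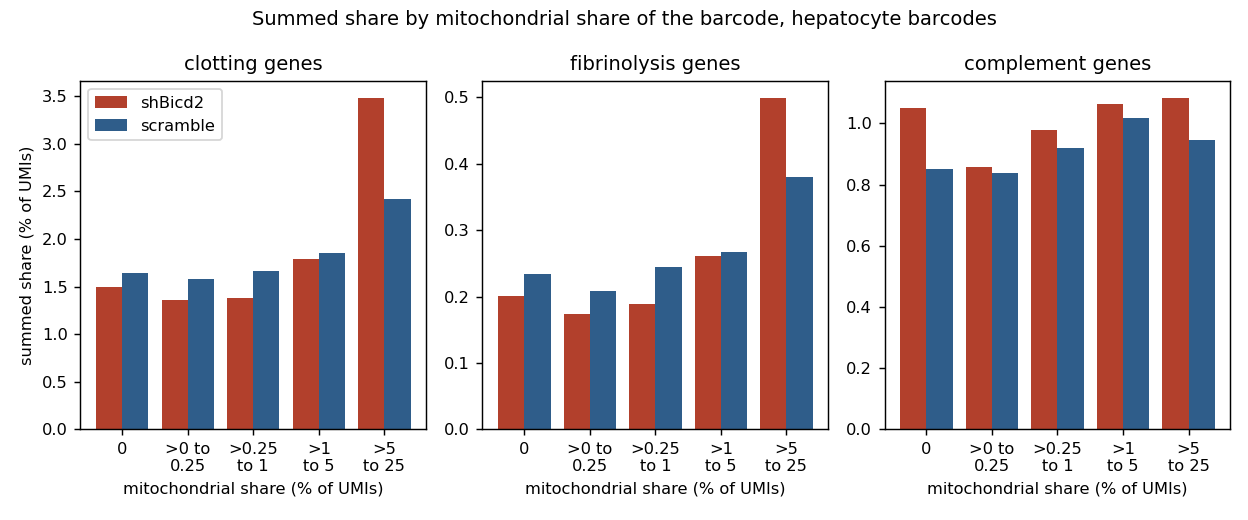
Summed share of UMIs of the clotting, fibrinolysis and complement genes in hepatocyte barcodes of 5 classes of mitochondrial share, with shBicd2 bars left of scramble bars. In the class over 5% to 25% the clotting genes reach 3.49% in shBicd2 and 2.42% in scramble, while complement stays between 0.837% and 1.08% in all classes.

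The ratio of several genes depended on the mitochondrial share. Fga had 8326 CPM in shBicd2 and 4669 CPM in scramble in the class over 5%, a ratio of 1.78 (1.63 to 1.96), but 1998 CPM against 2348 CPM in the class above 0 to 0.25%, a ratio of 0.851 (0.820 to 0.883). Fgb had ratios of 1.91 (1.77 to 2.08) and 1.01 (0.983 to 1.04) in the same classes, and Fgg 1.10 and 0.725. Plg was at 1.70 (1.35 to 2.17) in the top class and 0.831 in the other. In contrast, C3, Hc and Kng1 had ratios above 1 in each of 5 classes and Cfb, C6 and Serpinf2 ratios below 1 in each of them. Hc, for instance, had 1.68, 1.57, 1.86, 1.41 and 1.33 from the lowest to the highest class. C2 was below 1 in all 4 classes in which it had 50 UMIs.

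Most hepatocyte clusters belonged to 1 library. Of the 12, 5 held at least 9 shBicd2 barcodes for each scramble barcode and 4 the reverse, although the 39 genes had been left out of the genes used for clustering. Cluster and library therefore cannot be told apart in most of them. The range over the 5 shBicd2 clusters did not overlap that over the 4 scramble clusters for 3 of the 39 members. F13b and Hrg lay above and F2 below. Of all genes 4.39% lay wholly above and 4.94% wholly below, so the members' count was close to these shares. F13b ran from 7.67 to 15.0 CPM in shBicd2 clusters and from 2.32 to 6.08 CPM in scramble clusters. Hrg ran from 32.1 to 59.6 CPM against 3.04 to 23.2 CPM, and F2 from 240 to 516 CPM against 526 to 604 CPM. For Proc, Hc and C2, the ranges overlapped. The result depends on the 9 to 1 cut, which left out cluster 1 (134 shBicd2 and 652 scramble barcodes), cluster 8 and cluster 15 (65 and 8). In cluster 1, F2 had 348 CPM and Hrg 38.9 CPM, both inside the ranges of the shBicd2 clusters. Hrg had 19.5 CPM in cluster 15, inside the range of the scramble clusters. F13b, at 7.325 CPM in cluster 1 and 6.495 CPM in cluster 15, lay between the ranges.

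The members varied strongly among the clusters of a single library. In cluster 4, with 525 shBicd2 and 5 scramble barcodes and led by heat shock genes and EGFP, the 39 genes gave only 1.57% of UMIs, the lowest share. In cluster 2, with 744 shBicd2 and 7 scramble barcodes, they gave 3.33%. Fga had 1015 CPM in cluster 4 and 3373 CPM in cluster 2. Cluster 5 (426 and 10 barcodes) gave a larger share to complement than to clotting genes, 1.248% and 0.878% of UMIs. Its C4b level of 5441 CPM was the highest of any cluster. Cfb was high in cluster 5 and in cluster 11, which is almost all scramble, with 2721 and 3244 CPM, against 572 CPM in cluster 7. Cluster 8, in which mitochondrial genes led, was the 1 large cluster with both libraries in near equal number, 196 and 201 barcodes. There the 39 genes gave 5.25% of UMIs in shBicd2 and 3.72% in scramble, a ratio of 1.41 (1.38 to 1.45), and 10 of 29 members were past 1.5-fold higher and 1 lower, against 29.2% and 35.8% of all genes. Fibrinogen genes made up 7168 of the 12011 member UMIs of this cluster in shBicd2 and 5505 of the 10116 in scramble.

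**Figure D5:**
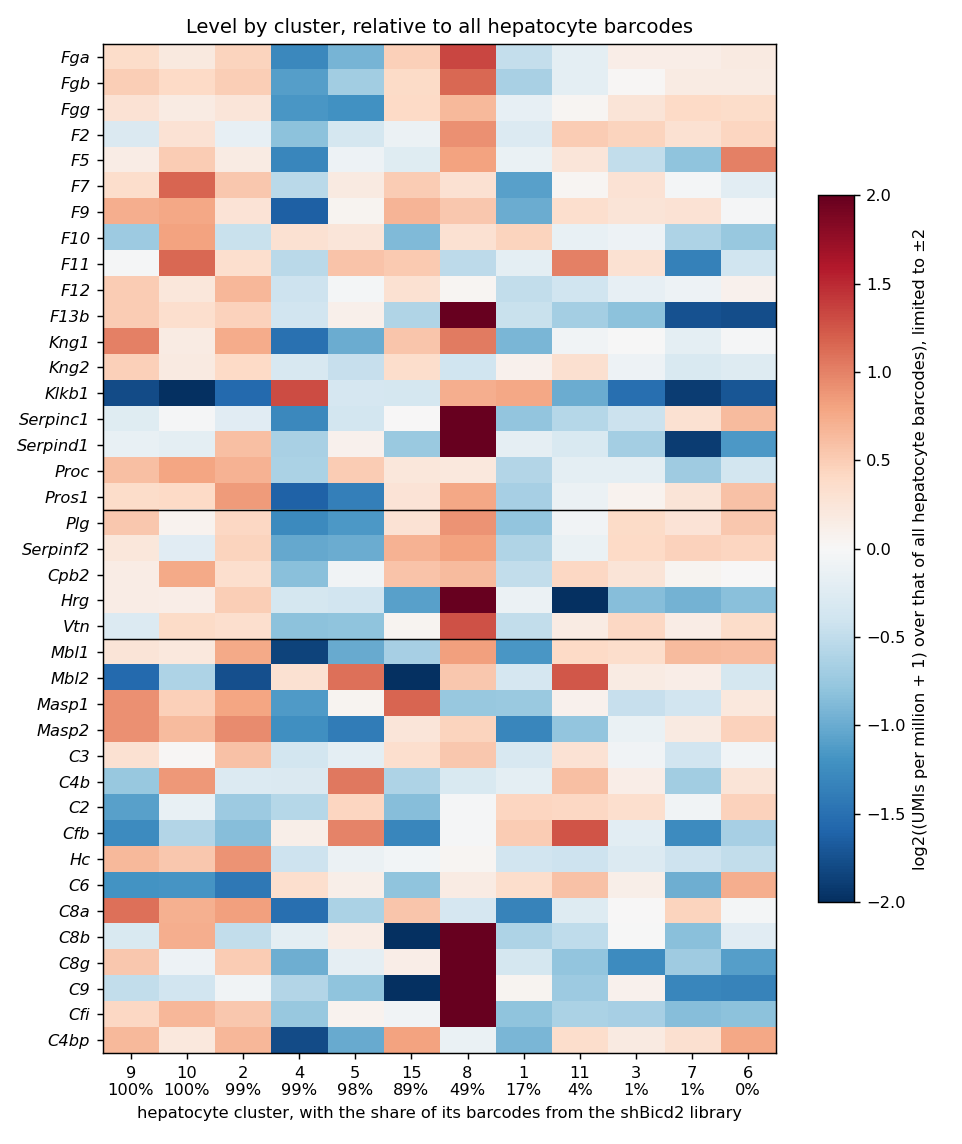
Level of each gene in the 12 hepatocyte clusters relative to all hepatocyte barcodes, as log2 of CPM plus 1, limited to 2 in either direction, with clusters ordered from mostly shBicd2 at the left to mostly scramble at the right. Cluster 4 is low for most clotting genes, cluster 8 is high for Serpinc1, Hrg, C8b, C8g, C9 and Cfi, and Cfb is high in clusters 5 and 11.

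EGFP barcodes gave a smaller share of their UMIs to these genes. In shBicd2, the 776 barcodes with an EGFP UMI gave 2.04% of UMIs to the 39 genes and the 1886 without gave 2.99%. In scramble, the 161 with EGFP gave 2.21% and the 2296 without 2.80%. The barcodes with EGFP were deeper, with medians of 2070 against 1430 UMIs in shBicd2 and 2264 against 1540 in scramble, and depth was not tested as a cause. Left to barcodes without EGFP, the summed share was 2.99% in shBicd2 and 2.80% in scramble, a ratio of 1.07 (1.06 to 1.08), on the other side of 1 from the ratio with all hepatocyte barcodes. In that setting 11 members were past 1.5-fold higher and 2 lower, against 25.3% and 8.86% of all genes. Kng1, Serpind1, Masp1, Masp2, C8a and C8g joined the 5 genes above 1.5-fold, and C6 joined C2 below it.

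RNA of the 39 genes was also counted in barcodes of other cell types, where levels no higher than those of the hepatocyte markers are read as background and not as expression. In monocyte/macrophage-like barcodes, 79 in shBicd2 and 74 in scramble with medians of 766 and 733 UMIs, the members had 0.622 and 0.574 of their hepatocyte level and the markers 0.594 and 0.617 of theirs. The interval of F10 lay above the marker level there, on few UMIs. It had 22 UMIs in shBicd2, 1.99 (1.247 to 3.01) times what the markers give, and 20 UMIs in scramble, 1.77 (1.08 to 2.73) times. Pros1 had 6 and 9 UMIs, 3.30 (1.21 to 7.17) and 4.08 (1.87 to 7.75) times. A stricter cut, an interval wholly above 1.5, was passed by F10 in neither library and by Pros1 in scramble alone. In the same barcodes C1qb, a chain of the C1q molecule that macrophages make and not one of the 39 genes, had 29 UMIs in shBicd2 and 23 in scramble.

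The counts for other genes of the same cascades stand beside the 22.3% higher and 10.3% lower of all genes. Of 16 other clotting genes, 10 had 50 UMIs in hepatocyte barcodes, and 1 was past 1.5-fold higher and 4 lower (10% and 40%). Serpina10, the inhibitor that acts with protein Z on factor Xa, had 358 CPM in shBicd2 and 885 CPM in scramble (0.405, 0.383 to 0.428). Proz, protein Z itself, had 35.1 CPM against 61.1 CPM (0.574, 0.473 to 0.695), so both parts of that anticoagulant pair were past 1.5-fold lower. Gas6, a vitamin K-dependent ligand, had 74.9 CPM against 156 CPM (0.481), and Lman1, a transport receptor for factors V and VIII, 135 CPM against 213 CPM (0.634). Vwf, made by endothelial cells, was the gene above, on 61 and 36 UMIs (1.53, 0.995 to 2.37). It was also among the leading genes of cluster 10, a hepatocyte cluster of 169 shBicd2 and 0 scramble barcodes. The part of that cluster in the Vwf ratio was not tested. The 13 endothelial markers summed to 60.0 CPM in shBicd2 and 23.9 CPM in scramble hepatocyte barcodes, with 3 of the 4 that had 50 UMIs past 1.5-fold higher, and their part in the Vwf ratio was not tested.

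Of 13 other fibrinolysis genes, 10 were measured, with 3 past 1.5-fold higher and 2 lower (30% and 20%). S100a10 and Anxa2, which together form a plasminogen receptor, had 215 and 13.3 CPM in shBicd2 against 49.0 and 4.57 CPM in scramble, ratios of 4.39 (3.8 to 5.09) and 2.92 (1.77 to 5.01). Anxa2 stood at 280 CPM (168 to 437) in the mixed mesothelial and neutrophil and 93.2 CPM (37.5 to 192) in the monocyte/macrophage-like barcodes of shBicd2. For S100a10, 1096 of the 1128 UMIs in kept shBicd2 barcodes were in hepatocyte barcodes. Neutrophil and monocyte/macrophage markers were higher in shBicd2 hepatocyte barcodes too, and the part of these cell types in both ratios was not tested. Plgrkt, another plasminogen receptor, had 39.02 CPM against 65.9 CPM (0.592). The protease inhibitors A2m and Mug1 were past 1.5-fold in opposite directions, with ratios of 0.664 and 1.52, though reads of Mug1 may be shared with close paralogs such as Mug2.

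Of 31 other complement genes, 12 were measured, with 2 past 1.5-fold in each direction (16.7% each), together close to the share of all genes. Clu, clusterin, a terminal pathway inhibitor, had 709 CPM in shBicd2 and 460 CPM in scramble (1.54, 1.46 to 1.63). Colec12, a scavenger receptor, had 27.6 CPM against 8.49 CPM (3.26). C1ra, a protease of the C1 complex, had 184 CPM against 295 CPM (0.626, 0.575 to 0.680), though reads may be shared with a close paralog, while its partner C1s1 had 1613 CPM against 1765 CPM (0.914). Cfp, properdin, which stabilises the alternative convertase, had 20.2 CPM against 36.6 CPM (0.553).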

How the data were processed

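The 2 mouse liver libraries were made with the 10x 3' kit 3.1, per the labels' protocols. The authors deposited raw UMI counts for each gene in each barcode. Cell Ranger 6.1.2 is named in the matrices, per the file headers, whereas Cell Ranger 6.0.1, Seurat 4.0.3 and mm10 are listed per the submitters' processing notes. Intron counting and doublet removal by the authors are not given in the sources used here.

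Kept barcodes had 200 genes or more and no more than 25% of UMIs from mitochondrial genes, and the barcodes with the highest Scrublet scores were removed (73 in shBicd2, 62 in scramble), leaving 2941 and 2729. Clusters were built with scanpy 1.11.5 and leidenalg 0.10.2 at resolution 1.0 from 2000 variable genes, 30 components and 15 neighbours, with the 39 genes and the other genes of these cascades left out. Clusters were named where at least 3 markers of a type were raised. The further conditions, that 40% of the markers be raised and 1 be among the cluster's 10 leading genes, were set after seeing the data, when clusters rich in mitochondrial RNA would otherwise have been named erythroid. The 12 clusters left to no other type are called hepatocyte barcodes.

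UMIs were summed per library and divided by the total to give CPM, and ratios are shBicd2 over scramble. A gene was counted as past 1.5-fold by its point ratio with at least 50 UMIs over both libraries. Intervals are at 95% and cover counting error only. The intervals were tested on simulated Poisson counts, which hold no spread between barcodes or animals, so that test too covers counting error only. No p-value was computed, since barcodes are not replicates. All 39 genes could be named, and of other cascade genes those past 1.5-fold and the 4 with most UMIs in each list. Some of these are not reported here. Promoters were printed for the fibrinogen genes and the highest and lowest member of each branch. The members, lists and branches were chosen with earlier results of these data known. There were 15 alternatives, 2 of them (without cluster 8, and at most 1% mitochondrial UMIs) chosen after seeing the data. TMM factors came from edgeR 4.0.16 and size factors from DESeq2 1.42.0, both used for scaling alone.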

Additional observations from a re-analysis of the deposited data

Results flagged for a closer look

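Fga and Plg differed between libraries in opposite directions at low and high mitochondrial share. Fga had a ratio, shBicd2 over scramble, of 1.32 (1.248 to 1.40) in hepatocyte barcodes with over 1% mitochondrial UMIs and of 0.856 (0.826 to 0.887) in those with at most 0.25%. Plg had 1.27 (1.11 to 1.46) and 0.827 (0.767 to 0.892). These are the 2 of 36 members measured in both sets of barcodes whose counting intervals both left out 1 on opposite sides. That criterion was chosen after the values were seen: the one used before it, past 1.5-fold in opposite directions, picked 0 members, and point ratios on opposite sides of 1 would pick 12. The difference between the 2 sets was not tested, and with 1 library per group it has no replicate check.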

How the results depend on the processing

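No paired analysis was possible because each group has 1 library, and for the same reason no replicate could be left out. Without EGFP barcodes 11 members were past 1.5-fold higher and 2 lower, and the median log2 ratios were 0.28 for all members, 0.304 for clotting, 0.051 for fibrinolysis, which changed its sign, and 0.35 for complement. With TMM factors the counts were 3 higher and 3 lower and the medians 0.014, 0.034, -0.283 and 0.131 in that order; with median-of-ratios size factors they were 2 and 3, and 0.01, 0.03, -0.288 and 0.127. All ratios shift alike under these scalings, by their construction. Leaving Malat1, Neat1 and mitochondrial genes out of the total gave 4 higher and 2 lower, and medians of 0.091 for members and 0.209 for complement. At most 5% mitochondrial UMIs gave medians of 0.088 for members, -0.239 for fibrinolysis and 0.163 for complement. Without cluster 8 these were 0.089, -0.242 and 0.165 with 7 higher and 1 lower, and at most 1% mitochondrial UMIs they were 0.10, -0.29 and 0.16 with 6 higher and 2 lower. Weighting each barcode equally gave 7 higher and 2 lower, and medians of 0.23 for members and 0.34 for complement. Thinning to 1000 UMIs, which left out 662 shBicd2 and 571 scramble barcodes, gave 5 higher and 2 lower. For these settings other than the scalings the cause was not tested. Proc, F13b and C2 stayed past 1.5-fold under every alternative in which they had 50 UMIs, whereas Hrg kept its call in 12 of 15, Cfi in 13 and Hc in 14. Low counts limit F13b, Serpind1 and C8b.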
